A study of Homo sapiens with 6 samples.

Results

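The potassium channel genes of BE-(2)-C cells were taken as the rows of the deposited table whose name starts with KCN and holds neither a comma nor a hyphen, which gave 71 of 26906 rows. Of these 71 genes, 49 had a mean of at least 10 normalised reads over the 6 libraries and 22 did not. The last gene inside that limit was KCND3, with a mean of 10.99, and the first outside it were KCNK13 with 9.04 and KCNJ9 with 8.83. BE-(2)-C is a human neuroblastoma cell line, derived from a tumour of the sympathetic lineage. It was treated with an siRNA against ELF4, a transcription factor of the ETS family, or with a control siRNA, and polyA RNA was sequenced after 48 hours in 3 libraries per group. The cells form a single line without other genotypes or treatments, and the sources used here give neither the sequence nor the number of the siRNAs. Values are normalised read counts, that is reads divided by a size factor per library, on a recovered depth of 23148635 to 38097986 reads. Fold changes are ELF4 siRNA over control siRNA on the log2(value + 1) scale with n = 3 libraries per group, and "rose" and "fell" mean a limma Benjamini-Hochberg adjusted p under 0.05 over all genes tested. Values after ± are standard deviations over the 3 libraries of a group.

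Potassium channels let potassium ions leave or enter cells along their gradient and so set the resting potential, the shape of action potentials and the firing rate of neurons. Voltage-gated channels open on depolarisation and are built from pore subunits that can carry accessory subunits. Calcium- and sodium-activated channels respond to ions inside the cell, inward rectifiers pass current best near the resting potential, and tandem pore channels give background leak. In cells of the sympathetic lineage these classes together govern excitability, and currents through ERG channels, encoded by KCNH2 and its relatives, are well known in neuroblastoma lines.

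ELF4 itself had 5.51, 5.61 and 3.10 normalised reads in the ELF4 siRNA libraries, against 42.4, 38.8 and 46.8 in the control siRNA libraries. The mean was 11.1% of the control mean (log2 fold change -2.96, SE 0.25, adjusted p = 5.38e-07), resting on 3 to 5 reads in each ELF4 siRNA library. ELF4 passed the filter on low values only through its control values, so it had to differ to be tested and its adjusted p adds no weight. All 9 markers of adrenergic neuroblastoma had a row, and they summed to 211849 to 232726 normalised reads after ELF4 siRNA and 188950 to 201246 after control siRNA. The largest difference among the 9 was in CHGA, a protein of secretory granules, with 104374 ± 5687 after ELF4 siRNA and 71155 ± 2528 after control siRNA. CHGA and HAND2 rose, 3 of the 9 fell (log2 fold changes -0.14 to -0.17) and 4 did not pass. The higher sum thus rests largely on CHGA and does not stand for a rise of the markers as a set. Of the 5 fibroblast markers, COL1A1, COL3A1, DCN and LUM rose while COL1A2 stayed under 10 in all libraries, and the 5 summed to 2932 to 3337 after ELF4 siRNA and 1847 to 1894 after control siRNA. The 5 Schwann cell markers summed to 199 to 221 after ELF4 siRNA and 176 to 204 after control siRNA, with SOX10 under 10 in all libraries, S100B higher (log2 fold change 0.51, adjusted p = 0.00323) and ERBB3 lower (-1.37, adjusted p = 8.06e-05). Of 5 blood and endothelium markers 3 had a row, summing to 45.2 to 64.0 after ELF4 siRNA and 53.7 to 59.5 after control siRNA. Within that sum PTPRC rose (1.06, adjusted p = 0.00275) and CD14 fell (-1.24, adjusted p = 0.000152). The part of these markers in the results for potassium channel genes was not tested. In bulk RNA, fewer cells that use a gene and less RNA per cell cannot be told apart. With 3 libraries against 3, an exact permutation test of a single gene cannot go below p = 0.1 (two-sided), so the calls rest on limma's pooled estimate of the spread.

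Potassium channel genes moved in both directions. Among the 50 tested there were 14 rises and 13 falls, with 23 genes short of the threshold, so that 54.0% were called, against 45.1% of all 20339 genes tested. The 14 rises include the noncoding KCNQ1OT1, which encodes no channel and whose groups overlapped. Over all genes 20.7% rose and 24.4% fell, so the share of potassium channel genes called was near the background. Their median log2 fold change was 0.00, as was that of all genes tested (-0.004), and ELF4 siRNA and control libraries were fully apart in 27 of the 50, against 53.6% of all genes. A filter on the mean over all 6 libraries, which uses no group and was chosen after seeing the data, left 49 members with 13 that rose and 13 that fell, 53.1% called against 45.5% of all genes (20.9% rose and 24.6% fell). With upper quartile scaling 16 members rose and 12 fell, and rises made up 58.2% of the calls over all genes, against 46.0% as the values were deposited. A change of 1 log2 unit or more, in either direction, was reached by 6 of the 50 members, KCNMA1, KCNF1, KCNJ2, KCNJ9, KCNK5 and KCNK10, and by 2.89% of all genes. All 6 were called, and 2.82% of all genes both changed by that much and were called. Apart from KCNMA1 these members had means of 8.83 to 30.2 over the 6 libraries. The shares over all genes cover every level, so they are not matched to these members. KCNJ9 was tested only through its ELF4 siRNA values and KCNK5 only through its control values, so these members had to differ to be tested. Both are included in the counts above, among the 27 without overlap and the 6 large changes, and lend them no weight. The filter on the mean left out KCNJ9 but kept KCNK5.

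**Figure D1:**
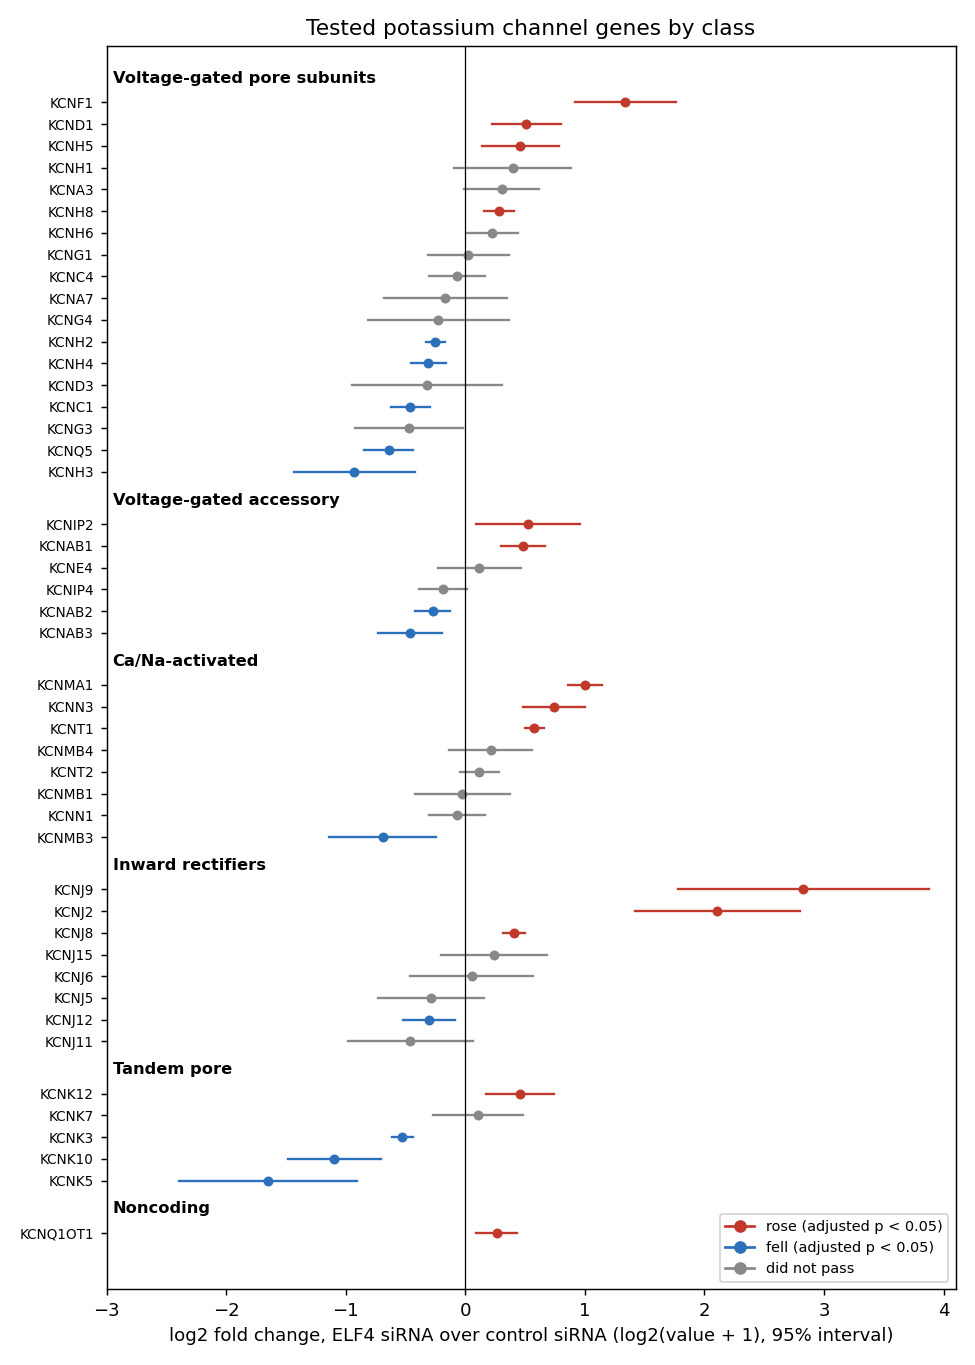
ELF4 siRNA over control siRNA as a log2 fold change (x axis, log2(value + 1) scale) for 46 of the 50 tested potassium channel genes, grouped by class. Points are limma estimates from 3 libraries per group and bars are 95% intervals. The 14 genes shown that rose are red and reach furthest right in KCNJ9, KCNJ2 and KCNF1, the 12 that fell are blue and reach furthest left in KCNK5 and KCNK10, and the other 20 are grey.

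A small set of genes held most of the signal. All 71 genes together summed to 33827 to 33981 normalised reads after ELF4 siRNA, which was 0.127% to 0.129% of a library, and to 31240.5 to 31347 after control siRNA, 0.116% to 0.119%. KCNT1, KCNH2, KCNJ8, KCNK3 and the noncoding KCNQ1OT1 made up 80.4% to 80.7% of that sum after ELF4 siRNA and 79.6% to 79.7% after control siRNA. Of these, KCNT1, KCNJ8 and KCNQ1OT1 rose and KCNH2 and KCNK3 fell. KCNT1 alone averaged 11084 after ELF4 siRNA and 7434 after control siRNA, so the higher sum does not stand for a rise of the genes as a set. Per kilobase of exon in GENCODE 29, the order of the mean levels over the 6 libraries was KCNH2 (1702 normalised reads per kb), KCNJ8 (1634), KCNT1 (1223) and KCNK3 (482), followed by KCNH8 (134). KCNJ8 led KCNH2 after ELF4 siRNA, with 1863 and 1553 normalised reads per kb, whereas KCNH2 led KCNJ8 after control siRNA, with 1850.5 and 1405. The lengths are unions of annotated exons, so a gene with many annotated exons, such as KCNMA1 with 21442 bases, may be placed lower than its main transcript would be.

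**Figure D2:**
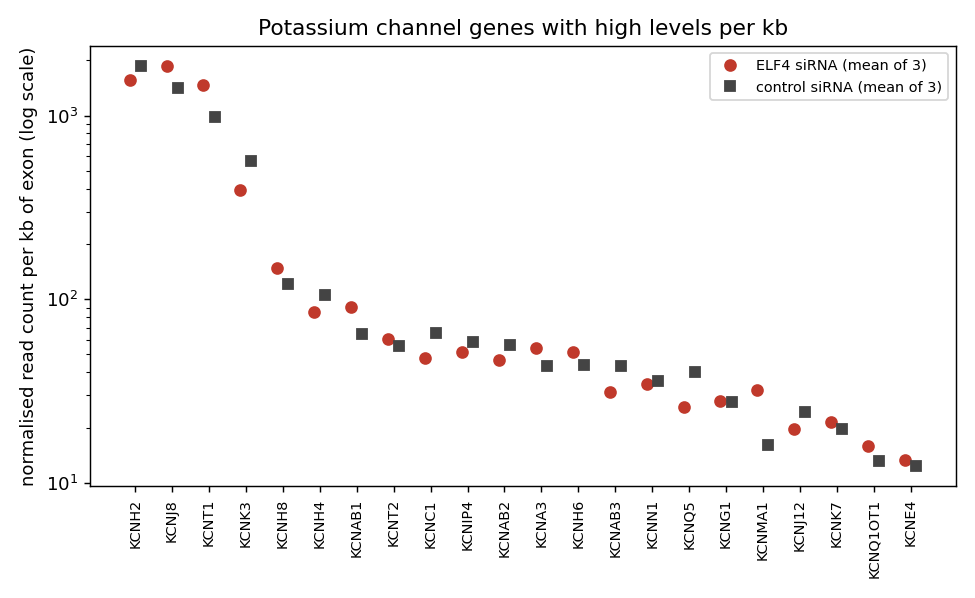
Mean normalised read count per kb of exon (y axis, log scale) in ELF4 siRNA (circles) and control siRNA (squares) libraries, 3 per group, for 22 of the 25 potassium channel genes with the highest level per kb. KCNH2, KCNJ8, KCNT1 and KCNK3 lie at 394 to 1863 normalised reads per kb in either group, and KCNH8 is next with 147 after ELF4 siRNA and 121 after control siRNA.

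Among voltage-gated pore subunits, 4 of 22 tested genes rose and 6 fell, where 20.7% of all genes tested rose and 24.4% fell. The median log2 fold change of the 22 was -0.09. The most abundant was KCNH2 (chr7:150944961-150978315, minus strand, GRCh38), which encodes the ERG channel that repolarises heart muscle and is found in many tumour cells. KCNH2 had 7765, 7911 and 7930 normalised reads in the ELF4 siRNA libraries, against 9578, 9097 and 9448 in the control siRNA libraries. The fall was small but clear of the spread between libraries (log2 fold change -0.25, SE 0.04, adjusted p = 7.53e-05), and all ELF4 siRNA values lay below all control values. Its relatives differed in direction. KCNH8, an ELK channel, had 762, 714 and 793 after ELF4 siRNA and 608, 609 and 650.3 after control siRNA, so it rose (log2 fold change 0.28, SE 0.06, adjusted p = 0.0014). KCNH4, another ELK channel, had 326, 343 and 327 after ELF4 siRNA and 441, 389.5 and 407 after control siRNA, so it fell (-0.31, SE 0.07, adjusted p = 0.00198). The other ELK gene, KCNH3, was much less abundant and fell. The ether-à-go-go gene KCNH5 rose to a mean of 47.8 ± 2.37 after ELF4 siRNA, against 34.5 ± 3.59 after control siRNA (0.46, adjusted p = 0.0214). KCNH5 no longer passed when ELF4 siRNA replicate 2 was left out (adjusted p = 0.0672), nor without control replicate 2 (0.0514) or control replicate 3 (0.083). KCNH1, the other ether-à-go-go gene, did not pass (log2 fold change 0.40, 95% interval -0.09 to 0.89), nor did the ERG gene KCNH6 (0.22, 0.01 to 0.44, adjusted p = 0.0868), which passed without ELF4 siRNA replicate 3 (adjusted p = 0.0167) and with upper quartile scaling (0.0294).

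KCNQ5, which can contribute to the M-current, a slow potassium current that restrains repetitive firing, fell. KCNQ5 had 158, 198 and 176 normalised reads after ELF4 siRNA and 296, 251 and 281 after control siRNA (log2 fold change -0.64, SE 0.10, adjusted p = 9.04e-05). Every ELF4 siRNA library was below every control library. KCNC1, a fast channel of rapidly firing neurons, had 434, 519 and 421 after ELF4 siRNA and 628, 619 and 634 after control siRNA, so it fell with no overlap (-0.46, SE 0.07, adjusted p = 0.000183). KCNC4 of the same family did not pass (log2 fold change -0.07, 95% interval -0.30 to 0.16).

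The A-type channel gene KCND1 rose, and so did an accessory gene of the same channel family. KCND1 encodes a pore subunit of rapidly inactivating currents and had 68.3, 74.1 and 80.7 normalised reads after ELF4 siRNA, against 46.2, 58.3 and 51.7 after control siRNA (log2 fold change 0.51, SE 0.13, adjusted p = 0.00643). The groups did not overlap. KCNIP2, a calcium-binding accessory subunit of these channels, averaged 36.3 ± 7.49 after ELF4 siRNA and 24.98 ± 5.30 after control siRNA (0.52, adjusted p = 0.0492). Its call sits at the threshold and was lost on leaving out ELF4 siRNA replicate 1 (adjusted p = 0.0655) or 2 (0.201) and without control replicate 1 (0.116) or 3 (0.176), and also with no filter (0.0589) or no trend (0.0815). DPP6, a peptidase-like partner of the same channels without a KCN name, rose to 1883 ± 53.8 after ELF4 siRNA, against 1320 ± 60.6 after control siRNA (0.51, SE 0.05, adjusted p = 1.47e-06). KCND3, the other KCND gene with a row, stayed near 10 and did not pass (-0.32, 95% interval -0.94 to 0.31), and neither did the accessory gene KCNIP4 (-0.19, -0.38 to 0.01), which passed without ELF4 siRNA replicate 3 (adjusted p = 0.0406).

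The beta subunits of voltage-gated channels, cytoplasmic proteins that resemble oxidoreductases and alter inactivation and surface transport, split by gene. KCNAB1 had 453, 443 and 546 normalised reads after ELF4 siRNA and 341, 315 and 373 after control siRNA (log2 fold change 0.48, SE 0.09, adjusted p = 0.000429). KCNAB2 had 317, 333 and 319.8 after ELF4 siRNA and 388, 414 and 372 after control siRNA (-0.27, SE 0.07, adjusted p = 0.00431). KCNAB3 had 83.7, 79.7 and 67.3 after ELF4 siRNA and 99.9, 121 and 97.8 after control siRNA (-0.46, SE 0.13, adjusted p = 0.00792). So KCNAB1 rose and KCNAB2 and KCNAB3 fell, each without overlap of the groups. A further row that joins KCNAB3 with an overlapping gene averaged 22.5 ± 5.79 after ELF4 siRNA and 19.4 ± 0.33 after control siRNA and did not pass (0.18, 95% interval -0.29 to 0.64). KCNE4, a small single-span accessory subunit, did not pass (0.12, -0.22 to 0.46). Counting accessory genes of voltage-gated channels together, 2 of 6 tested rose and 2 fell, where 20.7% of all genes tested rose and 24.4% fell.

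KCNA3, a pore gene of the Shaker family, did not pass either, although it averaged 140 ± 34.5 normalised reads after ELF4 siRNA and 111 ± 11.05 after control siRNA (log2 fold change 0.30, 95% interval -0.01 to 0.62). It passed without ELF4 siRNA replicate 2 (adjusted p = 0.0331), with upper quartile scaling (0.045) and with the replicate number as a block (0.0283). Of the silent subunits, which form no channel alone but modify others, KCNF1 rose and is described among the genes with few reads. KCNG1 (log2 fold change 0.03), KCNG3 (-0.47) and KCNG4 (-0.23) did not pass, though KCNG3 passed without ELF4 siRNA replicate 3 (adjusted p = 0.0211). KCNA7, another Shaker gene, also did not pass (-0.17).

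**Figure D3:**
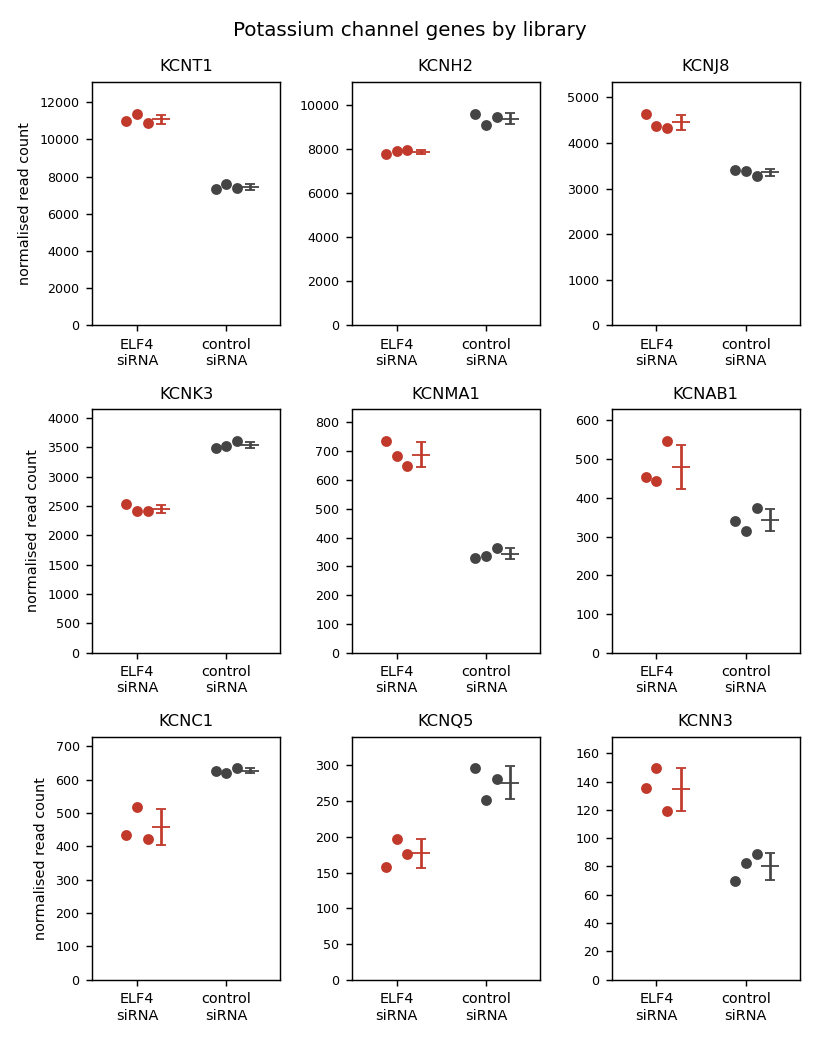
Normalised read counts (y axis, from 0) of 9 potassium channel genes in each ELF4 siRNA library (left) and control siRNA library (right), 3 per group, with the mean and SD beside the points. The ELF4 siRNA libraries lie above the control libraries for KCNT1, KCNJ8, KCNMA1, KCNAB1 and KCNN3 and below them for KCNH2, KCNK3, KCNC1 and KCNQ5, with no overlap in any of the 9.

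The calcium- and sodium-activated class held KCNT1, first by total normalised reads though not per kb, and, in KCNT1 and KCNMA1, the rises with the smallest adjusted p. In it 3 of the 8 tested genes rose and 1 fell, where 20.7% of all genes tested rose and 24.4% fell. The median log2 fold change of the 8 was 0.17. KCNT1 (chr9:135702185-135795508, plus strand, GRCh38), a sodium-activated channel (Slack) that limits excitability, had 10996, 11365 and 10892 normalised reads in the ELF4 siRNA libraries, against 7328, 7600 and 7374 in the control siRNA libraries. It rose to 149% of the control mean (log2 fold change 0.58, SE 0.04, adjusted p = 3.75e-08). Its paralogue KCNT2 (Slick) did not pass, with means of 415 ± 44.1 after ELF4 siRNA and 382 ± 11.6 after control siRNA (0.12, 95% interval -0.05 to 0.28). KCNMA1 (chr10:76869602-77638369, minus strand), the pore of the large-conductance BK channel opened by calcium and voltage, had 735, 682 and 648 after ELF4 siRNA and 328, 337 and 365 after control siRNA. Its mean was 201% of the control mean (1.00, SE 0.07, adjusted p = 6.01e-08), and the lowest ELF4 siRNA library was far above the highest control library.

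KCNN3, a small-conductance channel that is gated by calcium through bound calmodulin and underlies afterhyperpolarisation, had 135, 149 and 119 normalised reads after ELF4 siRNA and 69.7, 82.2 and 88.5 after control siRNA (log2 fold change 0.74, SE 0.12, adjusted p = 0.000195). KCNN1 of the same family did not pass (-0.07, 95% interval -0.31 to 0.17). None of the 3 tested beta subunit genes, whose products tune BK channels, passed as higher. KCNMB1 (-0.02, -0.42 to 0.37) and KCNMB4 (0.21, -0.13 to 0.56) did not pass, and KCNMB3 fell to 19.2 ± 4.35 after ELF4 siRNA, against 31.4 ± 4.51 after control siRNA (-0.69, adjusted p = 0.0141). That call was lost without control replicate 2 (adjusted p = 0.0587). More reads were counted in a row that joins KCNMB3 with the pseudogene LRRFIP1P1, which averaged 208 ± 13.3 after ELF4 siRNA and 221 ± 5.59 after control siRNA and did not pass (-0.09, adjusted p = 0.396), so the fall of the separate row is uncertain as a statement on the gene.

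Inward rectifiers included 8 tested genes, 3 of which rose and 1 of which fell, where 20.7% of all genes tested rose and 24.4% fell. The median log2 fold change of the 8 was 0.15. Without KCNJ9, which was tested only through its ELF4 siRNA values, 2 of 7 rose and 1 fell, with a median of 0.05. KCNJ8 (chr12:21764955-21774821, minus strand), a pore subunit of ATP-sensitive channels that couple metabolism to membrane potential, had 4635, 4382 and 4336.5 normalised reads after ELF4 siRNA and 3415, 3379 and 3279 after control siRNA. It rose to 133% of the control mean without overlap (0.41, SE 0.04, adjusted p = 2.77e-06). Its sulfonylurea receptor partner ABCC9, chosen after its values were seen, averaged 663 ± 18.2 after ELF4 siRNA and 611 ± 28.3 after control siRNA and did not pass (0.12, adjusted p = 0.109). The other ATP-sensitive pore gene, KCNJ11, was low, at 18.4 ± 2.70 after ELF4 siRNA and 26.4 ± 8.32 after control siRNA, and did not pass (-0.46, adjusted p = 0.141) except without control replicate 3 (adjusted p = 0.0275). KCNJ12, a classical strong inward rectifier, had 119, 110.0 and 103 after ELF4 siRNA and 139, 146 and 125 after control siRNA (-0.30, SE 0.10, adjusted p = 0.025). KCNJ12 has near-identical copies in the genome, so its level is uncertain, and it failed the test on leaving out ELF4 siRNA replicate 2 (adjusted p = 0.0555) or 3 (0.0772) and without control replicate 1 (0.081) or 2 (0.0849), as well as with upper quartile scaling (0.0737). KCNJ5 (log2 fold change -0.29) and KCNJ6 (0.05), which like KCNJ9 form channels opened by G proteins, did not pass, nor did KCNJ15 (0.24).

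Of the tandem pore leak channels 5 genes were tested, with 3 falls and 1 rise, where 24.4% of all genes tested fell and 20.7% rose. The median log2 fold change of the 5 was -0.53. Without KCNK5, which was tested only through its control values, there were 2 falls and 1 rise among 4 genes and the median was -0.21. KCNK3 (chr2:26692690-26733420, plus strand), the acid-sensitive background channel TASK, had 2531, 2419 and 2412.5 normalised reads in the ELF4 siRNA libraries, against 3496, 3522 and 3606 in the control siRNA libraries. It fell to 69.3% of the control mean (-0.53, SE 0.04, adjusted p = 2.1e-07), with libraries of a group close together and far from those of the other. KCNK12, a THIK-type subunit, had 61.7, 59.5 and 72.4 after ELF4 siRNA and 44.3, 48.0 and 47.5 after control siRNA and rose (0.46, SE 0.13, adjusted p = 0.0123), although not on leaving out ELF4 siRNA replicate 3 (adjusted p = 0.0516). KCNK7 did not pass (0.11, 95% interval -0.27 to 0.48). The mechanosensitive TREK-type gene KCNK10 and the alkaline-activated gene KCNK5 fell at low levels.

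The largest fold changes were in genes with few reads. KCNJ2, a strong inward rectifier that stabilises the resting potential, had 40.8, 40.4 and 51.7 normalised reads after ELF4 siRNA and 11.3, 4.57 and 15.6 after control siRNA (log2 fold change 2.11, SE 0.32, adjusted p = 0.000107). KCNF1, a silent subunit, had 47.4, 41.5 and 37.3 after ELF4 siRNA and 19.8, 13.7 and 14.9 after control siRNA (1.34, SE 0.20, adjusted p = 7.4e-05). In both genes the groups were well apart. KCNJ9, a subunit of G protein-gated channels, had 14.3, 14.6 and 18.6 after ELF4 siRNA and 1.88, 0 and 3.54 after control siRNA. That is 44 reads in the ELF4 siRNA libraries against 7 in the control libraries, a ratio of 7.61 at equal depth with a 95% exact interval of 3.40 to 20.03 that covers counting error only. The fitted value was 2.83 on the log2 scale (adjusted p = 0.000295). KCNJ9 passed the filter on low values only through its ELF4 siRNA values, so its adjusted p and interval add no weight.

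KCNK10 had 17.6, 20.2 and 18.6 normalised reads after ELF4 siRNA and 44.3, 45.7 and 34.7 after control siRNA (log2 fold change -1.09, SE 0.18, adjusted p = 0.000202). KCNK5 had 3.30, 6.73 and 7.24 after ELF4 siRNA and 19.8, 12.6 and 29.04 after control siRNA (-1.65, SE 0.35, adjusted p = 0.00145). KCNK5 rests on 16 reads in the ELF4 siRNA libraries against 73 in the control libraries, a ratio of 0.265 (95% exact interval 0.144 to 0.46, for counting error only). It passed the filter on low values only through its control values, so its adjusted p and interval add no weight either. KCNH3 had 13.2, 11.2 and 9.31 after ELF4 siRNA and 20.7, 19.4 and 26.9 after control siRNA (-0.93, SE 0.24, adjusted p = 0.00508), and DESeq2 on the recovered reads did not call it (adjusted p = 0.0578). DESeq2 likewise did not call KCNH5 (adjusted p = 0.157), KCNIP2 (0.161), KCNMB3 (0.117), KCNJ12 (0.153) or KCNK12 (0.0915). For KCNJ2, KCNF1, KCNK10 and KCNH3 the groups did not overlap. The same held for KCNJ9 and KCNK5, but there the filter required it. All values of KCNJ9 after control siRNA and of KCNK5 after ELF4 siRNA were under 10.

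**Figure D4:**
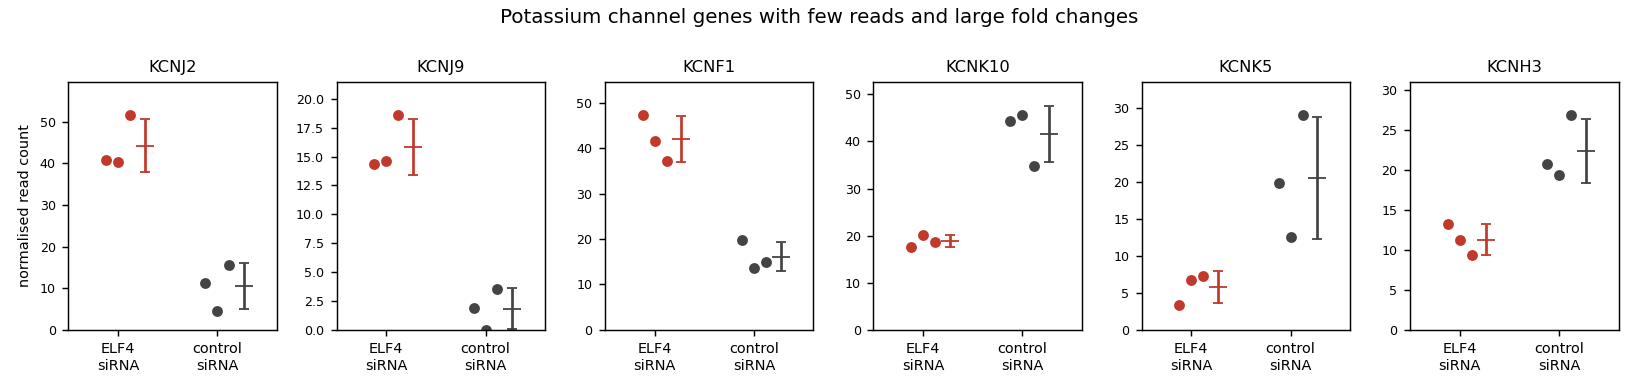
Normalised read counts (y axis, from 0) of KCNJ2, KCNJ9, KCNF1, KCNK10, KCNK5 and KCNH3 in each ELF4 siRNA library (left) and control siRNA library (right), 3 per group, with mean and SD. KCNJ2, KCNJ9 and KCNF1 are higher and KCNK10, KCNK5 and KCNH3 lower after ELF4 siRNA, with all values under 52.

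KCNQ1OT1 is a long noncoding RNA transcribed against the imprinted KCNQ1 gene and encodes no channel. It had 1425, 1303 and 1619 normalised reads after ELF4 siRNA and 1109.9, 1347 and 1162 after control siRNA, so the groups overlapped. It passed the test (log2 fold change 0.26, SE 0.08, adjusted p = 0.0151), but not without ELF4 siRNA replicate 3 (adjusted p = 0.0835) or control replicate 1 (0.0735), and not without the trend (0.11). No strand setting is stated, so its reads cannot be told apart from those of KCNQ1, which is not analysed here. KCNRG, a regulator of voltage-gated channel assembly, had 11 reads over all libraries in its own row, while a row that joins it with TRIM13 averaged 1088 ± 7.23 after ELF4 siRNA and 1273 ± 66.9 after control siRNA and fell (-0.22, adjusted p = 0.0024). A row joining KCNJ14 with GRWD1 also fell, to 983 ± 74.2 after ELF4 siRNA, against 1287 ± 78.9 after control siRNA (-0.39, adjusted p = 0.000171), while KCNJ14 alone had 30 reads in all. Another row, joining KCNJ14 with CTC-273B12.7, had 73 reads and did not pass (0.22, adjusted p = 0.568). Reads of joined rows cannot be divided between their genes, so they are no statement on KCNJ14 or KCNRG. The other 20 members that were not tested had 11 to 54 reads in total. They are the pore genes KCNA2, KCNC2, KCNG2, KCNV1 and KCNV2, the accessory genes KCNE1, KCNE2, KCNE3 and KCNIP3, the calcium-activated KCNN2, the inward rectifiers KCNJ3, KCNJ4, KCNJ10, KCNJ14 and KCNJ16, the tandem pore genes KCNK6, KCNK9, KCNK13 and KCNK15, and the pseudogene KCNMB3P1. They were left out by the filter on low values, so no difference in them was tested.

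**Figure D5:**
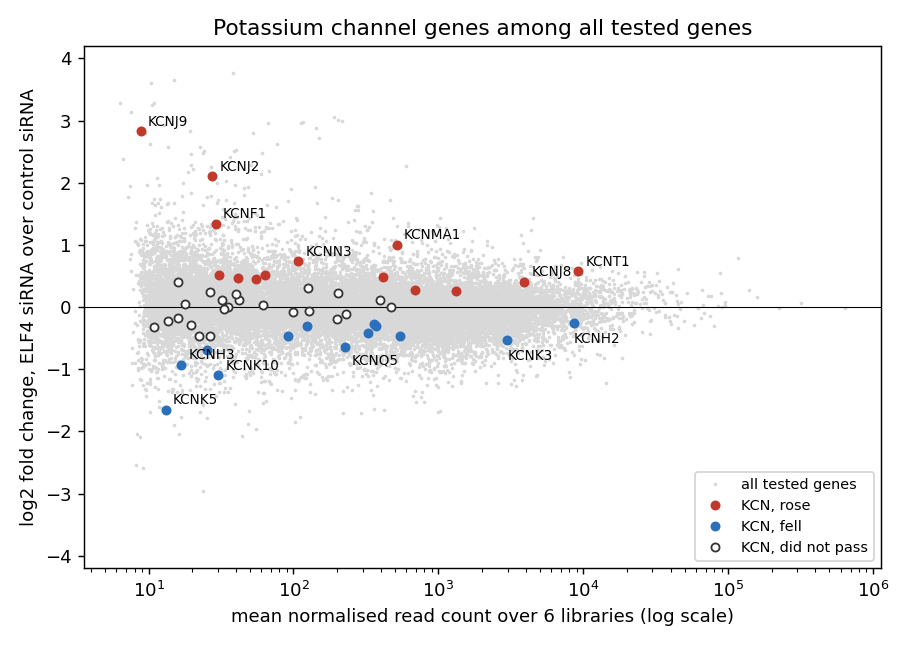
ELF4 siRNA over control siRNA as a log2 fold change (y axis) against the mean normalised read count over 6 libraries (x axis, log scale) for all 20339 tested genes (grey) and the 50 tested potassium channel genes (coloured by call). Potassium channel genes lie on both sides of 0, from KCNJ9 at 2.83 to KCNK5 at -1.65, and the 5 most abundant stay between -0.53 and 0.58.

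Because ELF4 belongs to the ETS family, whose members bind a GGAA core, the promoters of the genes were searched for CGGAAG on both strands. RefSeq promoters on GRCh38.p14, reaching from 250 bases before to 50 bases after an annotated start, were found for 53 of the 71 genes. The letters occurred in at least one promoter of 13 of these 53 genes (24.5%) and of 22.6% of the 27305 genes with a RefSeq promoter entry. Counted per promoter, they occurred in 13 of 84 entries of these genes (15.5%) and in 19.5% of all 35116 entries. Among called genes they occurred in 2 of 11 that rose (18.2%), KCNAB1 and KCNJ8, and in 2 of 9 that fell (22.2%), KCNAB2 and KCNH2. These 4 promoters are shown, with the match in capitals (CTTCCG where it is on the other strand), since they are the called genes that hold it.
KCNAB1, chr3:156120298-156120597, plus strand: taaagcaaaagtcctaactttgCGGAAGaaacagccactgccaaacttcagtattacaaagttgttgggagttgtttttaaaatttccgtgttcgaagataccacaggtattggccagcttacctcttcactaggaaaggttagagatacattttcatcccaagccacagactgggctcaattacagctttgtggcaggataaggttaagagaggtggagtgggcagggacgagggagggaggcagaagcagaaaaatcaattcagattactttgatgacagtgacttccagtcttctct
KCNJ8, chr12:21774657-21774956, minus strand: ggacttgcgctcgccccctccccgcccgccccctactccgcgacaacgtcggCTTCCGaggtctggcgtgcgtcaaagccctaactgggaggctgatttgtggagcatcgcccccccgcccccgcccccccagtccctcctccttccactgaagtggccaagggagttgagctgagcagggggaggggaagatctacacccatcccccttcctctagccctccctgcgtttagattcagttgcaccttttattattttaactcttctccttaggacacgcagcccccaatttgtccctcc
KCNAB2, chr1:6045638-6045937, plus strand: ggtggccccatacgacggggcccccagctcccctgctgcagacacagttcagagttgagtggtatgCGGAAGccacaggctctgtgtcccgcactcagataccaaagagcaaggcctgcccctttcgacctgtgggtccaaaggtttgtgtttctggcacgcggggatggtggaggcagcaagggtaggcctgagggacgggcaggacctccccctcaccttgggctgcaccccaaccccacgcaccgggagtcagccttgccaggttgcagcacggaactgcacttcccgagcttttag
KCNH2, chr7:150978272-150978571, minus strand: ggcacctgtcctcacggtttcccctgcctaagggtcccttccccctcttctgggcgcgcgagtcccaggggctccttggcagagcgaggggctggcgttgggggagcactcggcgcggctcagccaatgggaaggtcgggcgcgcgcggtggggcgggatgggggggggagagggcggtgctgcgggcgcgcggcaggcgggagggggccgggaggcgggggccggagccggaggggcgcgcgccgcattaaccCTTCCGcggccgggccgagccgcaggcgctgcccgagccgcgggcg
Counting from the annotated start, the match begins at position -228 in KCNAB1, -198 in KCNJ8, -184 in KCNAB2 and 5 in KCNH2. KCNAB1, KCNAB2 and KCNH2 have further annotated starts without a match. A match is only a match of letters, and both directions of change were seen among the genes that hold it.

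Earlier results of these data tied lower values to the letters ACCTGTC and the overlapping CCTGTCA in 3′ UTRs, which were picked on these same fold changes and so test nothing here. In the longest 3′ UTR per gene in GENCODE 29, on the sense strand, either 7-mer occurred in 5 of 13 potassium channel genes that fell (38.5%), in 1 of 13 that rose (7.69%) and in 8 of 23 that did not pass (34.8%). Over all genes tested with a 3′ UTR the share was 20.5%, with 27.4% of those that fell and 16.2% of those that rose. The UTRs of the potassium channel genes were long, with a median of 3230 bases in those that fell and 2750 in those that rose, against 1410 over all genes. The sites in called genes are shown with the match in capitals, on GRCh38.
KCNK3, chr2:26729210-26729237, plus strand: gaggcagcggCCTGTCAgtctgcagaat
KCNK3, chr2:26730811-26730838, plus strand: agggtcctgtCCTGTCAgtcccgaggga
KCNK10, chr14:88183773-88183800, minus strand: accatggaagACCTGTCcctgcccattt
KCNAB2, chr1:6098816-6098843, plus strand: cccacccaagCCTGTCAcctctgctcat
KCNH3, chr12:49558244-49558271, plus strand: ccctgcctctACCTGTCcccaaattttt
KCNMB3, chr3:179239017-179239044, minus strand: catggctcacACCTGTCActttatgcta
KCNJ9, chr1:160090112-160090139, plus strand: ccactggggcCCTGTCAtcaaagatgag
KCNK3 held 2 sites and the others 1 each, and KCNMB3 held both 7-mers in overlap. KCNJ9, which was tested only through its ELF4 siRNA values, is the called gene with a site that rose. The 13 that fell include KCNK5, tested only through its control values, and KCNMB3, whose fall is uncertain. KCNQ5, KCNC1 and KCNH2, which fell, and KCNT1, KCNMA1 and KCNJ8, which rose, had no match in that UTR.

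Genes that act on potassium channels or move potassium without a KCN name were taken from 2 lists written from textbook knowledge. Partners, anchors and regulators came to 33 tested genes, with 13 rises, 8 falls and a median log2 fold change of 0.04, where 20.7% of all genes tested rose and 24.4% fell. TMEM175, a potassium-permeable channel of endosomes and lysosomes, rose to 1264 ± 44.3 after ELF4 siRNA, against 675 ± 25.9 after control siRNA (0.90, adjusted p = 1.67e-08). CNTNAP2, an adhesion protein that clusters Shaker-type channels beside the node of Ranvier, fell to 410.0 ± 72.7 after ELF4 siRNA, against 1174 ± 61.4 after control siRNA (-1.53, adjusted p = 5.12e-08). DLG2, a scaffold that binds channel tails, rose to 342 ± 14.4 after ELF4 siRNA, against 162 ± 8.60 after control siRNA (1.08, adjusted p = 1.03e-07). DLG4 and DLG1 of the same list were added after their values were seen, and both fell. Their log2 fold changes were -0.51 (adjusted p = 0.000137) and -0.19 (adjusted p = 0.00301), and DLG3 did not pass. Potassium pumps, cotransporters and their regulators came to 23 tested genes, with 5 rises, 5 falls and a median of 0.06, near the 45.1% called over all genes. ATP1B1, the beta subunit of the sodium pump, which carries potassium into the cell, rose (0.44, adjusted p = 5.33e-06). SLC12A2, the sodium-potassium-chloride cotransporter, fell to 488 ± 24.9 after ELF4 siRNA, against 895 ± 48.2 after control siRNA (-0.87, adjusted p = 8.27e-08).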

How the data were processed

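RNA abundance in 3 ELF4 siRNA and 3 control siRNA libraries of BE-(2)-C cells was read from the deposited table. The deposited values are a signal, namely read counts divided by 1 size factor per library by the authors. TopHat, featureCounts, DESeq2 and hg19 were used, per the submitters' processing notes, and versions, annotation, strand setting and filters were not stated. Whole reads were recovered, since 100% of values were whole multiples of 1 read within 0.001. Since the values are normalised, differences were tested with limma (trend, no covariate) after taking log2(value + 1), over the 20339 rows with at least 10 in at least 3 libraries, with Benjamini-Hochberg adjustment over all of them. Libraries of a group differed by more than sampling noise (chi-square per degree of freedom 2.05 to 5.78). No label says that the libraries are separate cultures. The p-values therefore measure only how far these libraries vary, and that variation may be technical.

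The members, gene lists and rules were chosen with earlier results of these data known. The rule named every called member, and a few genes it named are not reported here by name, although they stay in the counts. It gave values per library for the 8 largest rises and falls with the higher group averaging 50 or more, for the 5 most abundant members and for the highest of each class. It also named the 4 genes of each list with the smallest adjusted p. Values per library of 6 genes with few reads were added after their values were seen. Promoters came from RefSeq (GRCh38.p14), and 3′ UTRs and exon lengths from GENCODE 29 (GRCh38). On simulated reads covering 20064 genes for this comparison, 78% of 100 genes changed by 0.5 log2 units and 97% of 100 changed by 1 were recovered by limma. Of the unchanged genes 10 were called. The simulation gave every gene the same spread beyond sampling noise and changed none of the genes with the lowest means. Recovery of members with few reads may thus differ. Far fewer genes were changed in the simulation than the 9173 called in the data. The Benjamini-Hochberg adjustment was therefore stricter there, and neither the recovery nor the 10 calls need carry over. Alternatives tried were the pseudocount, the filter, the scaling, the trend, a replicate block, edgeR and DESeq2 fits of the recovered reads, and the omission of each library. The software was Python 3.11.15 with pandas 2.3.3, numpy 2.4.6, scipy 1.17.1 and matplotlib 3.10.9, and R 4.3.3 with DESeq2 1.42.0, edgeR 4.0.16 and limma 3.58.1.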

Additional observations from a re-analysis of the deposited data

How the results depend on the processing

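Over the values of potassium channel genes under the alternatives, 782 kept their side of the threshold, 25 no longer passed, 8 newly passed and 0 reversed, where genes that never passed were not compared for direction. Against 14 potassium channel genes that rose and 13 that fell, the filter at a mean of 100 left 7 and 8, by construction since it tests fewer genes. DESeq2 called 11 and 10, and edgeR 14 and 13. Leaving out 1 library gave 12 to 13 rises and 10 to 14 falls. For the partners it gave 10 to 12 rises and 7 to 10 falls, and for the transport genes 5 rises and 4 to 5 falls. Falls among the transport genes numbered 3 without the trend and 3 with DESeq2, and the cause was not tested. KCNJ9 could not be tested without any ELF4 siRNA library, nor KCNK5 or ELF4 without any control library, because too few values reached 10. Over all genes 4217 rose and 4956 fell (46.0% of calls rose). Upper quartile scaling moved the median log2 fold change to 0.06 and gave 5479 and 3938 (58.2%), with 16 rises and 12 falls among potassium channel genes. Over all genes, leaving out 1 library gave 3519 to 4105 and 4114 to 4944. Deviations of same-numbered libraries correlated at 0.029, 0.075 and 0.041, against -0.057 to 0.015 for other pairs, so the numbers were not taken as pairing, although each library correlated best with its own number, which is only a hint. The replicate block gave 15 rises and 13 falls among potassium channel genes and 4564 and 5346 over all genes. Depth limits members with under 100 reads in all.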
